A study of Mus musculus with 16 samples.

Results

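The response of inguinal white adipose tissue to a high-fat diet (HFD) was measured over 2 genotypes at once, by setting all 8 HFD libraries against all 8 chow libraries with genotype as an additive term. All 16 libraries of the study entered, chosen by the diet in their labels, 8 of 16 on each diet. The tissue is a subcutaneous fat depot of the groin, taken from male mice of 6 to 7 months. The HFD libraries came from 4 animals lacking Kmo in the whole body (KO HFD) and 4 wild-type littermates (WT HFD), and the chow libraries from 4 animals of each genotype as well (KO chow, WT chow). Kmo encodes kynurenine 3-monooxygenase, an enzyme of tryptophan breakdown, so 4 of the 8 libraries on each diet carry its loss. The labels give neither the composition nor the duration of the diets. Poly-A RNA was sequenced and read pairs were counted per gene. Each library comes from its own animal code. The question was which moderate diet effects, under 2-fold, are resolved by 8 against 8 libraries and by neither genotype's 4 against 4.

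White fat cells store triglyceride in a lipid droplet and secrete hormones and matrix proteins. On a fatty diet the depot is known to enlarge its cells, to remodel the collagen scaffold around them and to recruit macrophages, while the capacity of its mitochondria for respiration often falls. Proteins bound for secretion or for the matrix are made at the endoplasmic reticulum, which needs translation, glycosylation, folding and coated transport vesicles.

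Libraries held 13824404 to 16909361 counted read pairs on HFD and 14680422 to 15903991 on chow, and 1 CPM, a count scaled to library size, stands for 14.1 to 16.5 read pairs. Fat cell markers were high in every library. Adipoq, the adiponectin gene, lay at 1610 to 3280 CPM and Plin1, the perilipin of the lipid droplet, at 1870 to 2850 CPM. Kmo had 1 to 8 counts in each KO library and 40 to 298 in each WT library, which fits the genotype labels. Over both genotypes Kmo was not called between diets (log2 fold change −0.85, SE 0.453, edgeR quasi-likelihood test, adjusted p = 0.155). It passed without WT HFD replicate 2 (−1.33, edgeR adjusted p = 0.0279) and without WT chow replicate 3 (−1.10, edgeR adjusted p = 0.0375). Without WT chow replicate 4 the edgeR adjusted p of Kmo was 0.363. Libraries stood apart in lymphoid transcripts. The lymphoid score averages the log2 CPM of genes of T and B lymphocytes. It had a lowest, median and highest value of −0.40, 0.72 and 4.79 on HFD, against 0.17, 3.59 and 5.66 on chow, and was above 4 in 2 of 8 HFD and 4 of 8 chow libraries. The score of skeletal muscle genes was 1.07, 3.6 and 5.56 on HFD, against 0.52, 3.39 and 6.5 on chow. With both scores as covariates the edgeR adjusted p of Kmo was 0.839. Over 34 alternatives its log2 fold change ran from −1.33 to −0.09. By the file headers, 3 HFD libraries and 1 chow library came from a single sequencing lane and the rest were merged over lanes. In bulk tissue, fewer cells of a type and less RNA per cell cannot be told apart.

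With 8 against 8 libraries, 5680 of 16549 genes tested (34.3%) differed between diets at an adjusted p under 0.05 in edgeR's quasi-likelihood test, 2902 higher on HFD and 2778 lower. With upper-quartile scaling 2394 were higher and 3446 lower. Of the 5680 calls, 4580 changed by less than 2-fold, which is 80.6% of the calls, and 3201 by less than 1.5-fold. In the same fit of 16 libraries by group means, KO alone gave 2071 calls (12.5%), 1205 higher (7.28%) and 866 lower (5.23%), 1468 of them under 2-fold. WT alone gave 1957 calls (11.8%), 1142 higher (6.9%) and 815 lower (4.92%), 1345 of them under 2-fold. The median absolute log2 fold change of a called gene was 0.52 over both genotypes, against 0.70 in KO alone and 0.70 in WT alone. The smallest called change was 0.12 over both genotypes, 0.24 in KO and 0.22 in WT. The half-width of a gene's 95% interval on the log2 scale had a median of 0.30 over both genotypes and 0.44 in each genotype alone.

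More genes were called over both genotypes than in either alone in every size class, by most among smaller changes. Between absolute log2 fold changes of 0.25 and 0.5, 2185 genes were called over both genotypes, against 543 in KO alone and 513 in WT alone. Below 0.25 these counts were 501, 10 and 3. Between 1 and 1.5 they were 703, 312 and 322, and above 2 they were 178, 140 and 141. The pooled and single-genotype comparisons share their libraries. Single-genotype counts moved with single libraries. The count in KO alone was 745, 824 and 1062 without KO HFD replicates 2, 3 and 4, and 947 and 785 without KO chow replicates 2 and 3. The count in WT alone was 1064 and 689 without WT HFD replicates 2 and 3, and 923 and 800 without WT chow replicates 1 and 4. The count over both genotypes ran between 4801 and 6151.

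**Figure D1:**
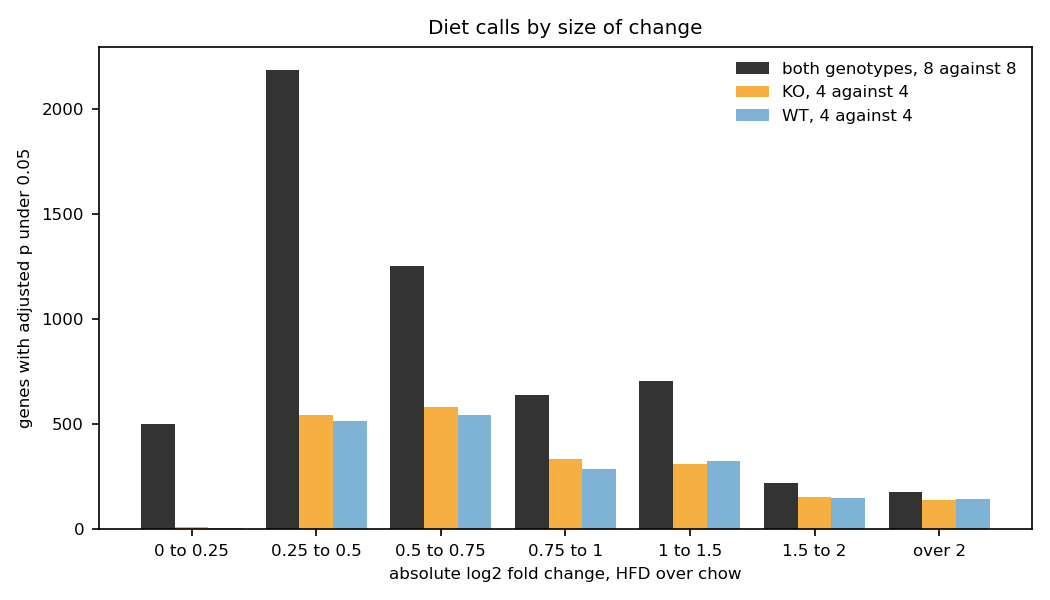
Number of genes with an adjusted p under 0.05 (y axis) by absolute log2 fold change of HFD over chow (x axis, 7 classes), for both genotypes together, KO alone and WT alone. The class from 0.25 to 0.5 holds 2185, 543 and 513 genes, and the class above 2 holds 178, 140 and 141.

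Of the 5680 calls, 2753 were also called in KO or WT alone, 1226 of them in both, and 2927 were called in neither. Of those 2927, 2519 (15.2% of genes tested) changed by less than 2-fold, 1210 higher on HFD (7.31%) and 1309 lower (7.91%). These 2519 genes are the moderate pooled-only changes, and 1912 of them lay under 1.5-fold. Their median change was 1.31-fold, the 10th percentile 1.16-fold and the 90th percentile 1.70-fold. Conversely, 49 genes called in KO or WT alone were not called over both. No gene passed the test of the interaction of diet and genotype (0 of 16549 by edgeR, DESeq2 and limma-voom alike, with 187 at an unadjusted p under 0.05 in edgeR). The interaction estimate had a median 95% half-width of 0.61, which leaves out the adjustment over all genes. A genotype difference in the diet effect had to exceed that width in a typical gene to be called, so smaller ones were mostly not detectable. The KO and WT diet contrasts use different libraries, and across the 16549 genes their log2 fold changes correlated at 0.82 by Pearson and 0.81 by Spearman. Genes are not independent replicates, so this is a description.

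The moderate pooled-only genes depended on which libraries entered. Without the 6 libraries with a lymphoid score above 4, 6 HFD and 4 chow libraries remained and 3936 of 16436 genes tested (23.9%) were called. Of the 2519 moderate pooled-only genes, 894 (35.5%) were still called there and 0 turned their sign. With the muscle score as a covariate in the same 10 libraries, an alternative chosen after seeing the data, 1463 (58.1%) were. That covariate raised the calls over all genes in these libraries from 3936 to 5483. With the lymphoid score as a covariate in all 16 libraries 1699 of the 2519 genes were still called, and with only the 12 libraries merged over lanes 1435. Leaving out 1 library at a time kept 1715 to 2281 of them called. The part of the lymphoid libraries in the result was not tested beyond these counts. Exon length moved with the diet effect to a small degree. The 5518 genes with the shortest exons had a median log2 fold change of −0.10, with 12% called higher and 16.2% lower, and the 5515 longest a median of 0.00, with 22.7% higher and 16.2% lower. Over all genes the correlation of log2 exon length with log2 fold change was 0.11 (Pearson). Over the 9737 genes with a mean of at least 10 CPM it was 0.06. The part of exon length in the results was not tested.

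The 12 moderate pooled-only genes with the smallest adjusted p in each direction show what this resolution reaches. Genes were taken at a mean of at least 10 CPM on 1 diet, and lie by this choice just above the threshold in each genotype alone. Their tests are therefore given as a description. Among the 12 higher genes, Ddx23, a helicase of pre-mRNA splicing, had a lowest, median and highest level of 87.1, 93.7 and 98.3 CPM on HFD, against 70.1, 79.3 and 87.5 CPM on chow. Only the lowest HFD library lay below the highest chow library. Ddx23 averaged 93.4 ± 4.22 CPM on HFD and 78.9 ± 5.03 on chow (SD, n = 8 each). The log2 fold change was 0.24 (SE 0.053, edgeR adjusted p = 0.0024), against 0.24 (adjusted p = 0.0503) in KO alone and 0.25 (adjusted p = 0.0506) in WT alone. Copz2, a subunit of the COPI vesicle coat, had 60.4, 67.5 and 73.3 CPM on HFD, against 41.4, 52.5 and 59.3 CPM on chow. All 8 HFD libraries lay above all 8 chow libraries (log2 fold change 0.39, SE 0.086, edgeR adjusted p = 0.00267). Rrn3, the factor that brings RNA polymerase I to ribosomal DNA, had 46.3, 51.0 and 56.9 CPM on HFD, against 33.5, 40 and 47.8 CPM on chow (log2 fold change 0.32, edgeR adjusted p = 0.00301). Its groups overlapped by a narrow margin.

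Col6a3, the alpha 3 chain of collagen VI, had 397, 666 and 769 CPM on HFD, against 235, 363 and 514 CPM on chow. The lowest HFD libraries lay within the chow range and the others above it, and the log2 fold change was 0.80 (SE 0.179, edgeR adjusted p = 0.00305). Ltbp4, which ties latent TGF-beta to elastic fibres, had 165, 215 and 286 CPM on HFD, against 113, 140 and 201 CPM on chow, with overlap (log2 fold change 0.58, edgeR adjusted p = 0.00264). Pcsk5, a protease that cleaves secreted precursors, had a log2 fold change of 0.64, Pola1, the catalytic subunit of DNA polymerase alpha, 0.61, and Unc13b, a priming factor of vesicle fusion, 0.68. The lipid kinase Pi4k2a (0.35), the anaphase-promoting complex subunit Anapc5 (0.26), Tmem209 (0.35) and Slc4a1ap (0.27) complete the 12, and the groups of Tmem209 and Slc4a1ap did not overlap either. Over all 2519 moderate pooled-only genes 46 had no overlap, where 1134 of all genes tested (6.85%) had none.

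Among the 12 lower genes, several act in metabolism. Ppm1k, the mitochondrial phosphatase that activates breakdown of branched-chain amino acids, had 10.1, 11.6 and 15.4 CPM on HFD, against 11.9, 19.2 and 22.7 CPM on chow (log2 fold change −0.57, SE 0.130, edgeR adjusted p = 0.00336). Dmac2, an assembly factor of respiratory complex I, had 11.6, 15.1 and 23.6 CPM on HFD, against 18.5, 25.5 and 41.4 CPM on chow (log2 fold change −0.76, SE 0.174, edgeR adjusted p = 0.00362). In both genes the groups overlapped, with most HFD libraries below most chow libraries. Impa2, an inositol monophosphatase, had a log2 fold change of −0.75 and Shpk, the kinase of sedoheptulose, −0.42.

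Other lower genes act in adhesion and in the handling of nucleic acids. Tns2, a tensin of focal adhesions, had 99.5, 152 and 229 CPM on HFD, against 203, 261 and 312 CPM on chow, with overlap (log2 fold change −0.76, SE 0.170, edgeR adjusted p = 0.00324). Jam2, a junctional adhesion molecule, had a log2 fold change of −0.48. Alkbh1, a demethylase of nucleic acids, had 8.82, 9.33 and 10.7 CPM on HFD, against 10.8, 12.4 and 18.3 CPM on chow, without overlap (log2 fold change −0.51, SE 0.116, edgeR adjusted p = 0.00353). Prr3 (−0.48) had no overlap either, while Dennd6b (−0.81), Unk (−0.45), S100pbp (−0.48) and Gmeb2 (−0.42) had some. None of these 24 genes lost its call when any 1 library was left out. In the 10 libraries with a low lymphoid score, 20 of the 24 were still called by edgeR, and Ltbp4 (adjusted p = 0.0586), Anapc5 (adjusted p = 0.0635), Rrn3 (adjusted p = 0.0526) and Ppm1k (adjusted p = 0.0748) were not.

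**Figure D2:**
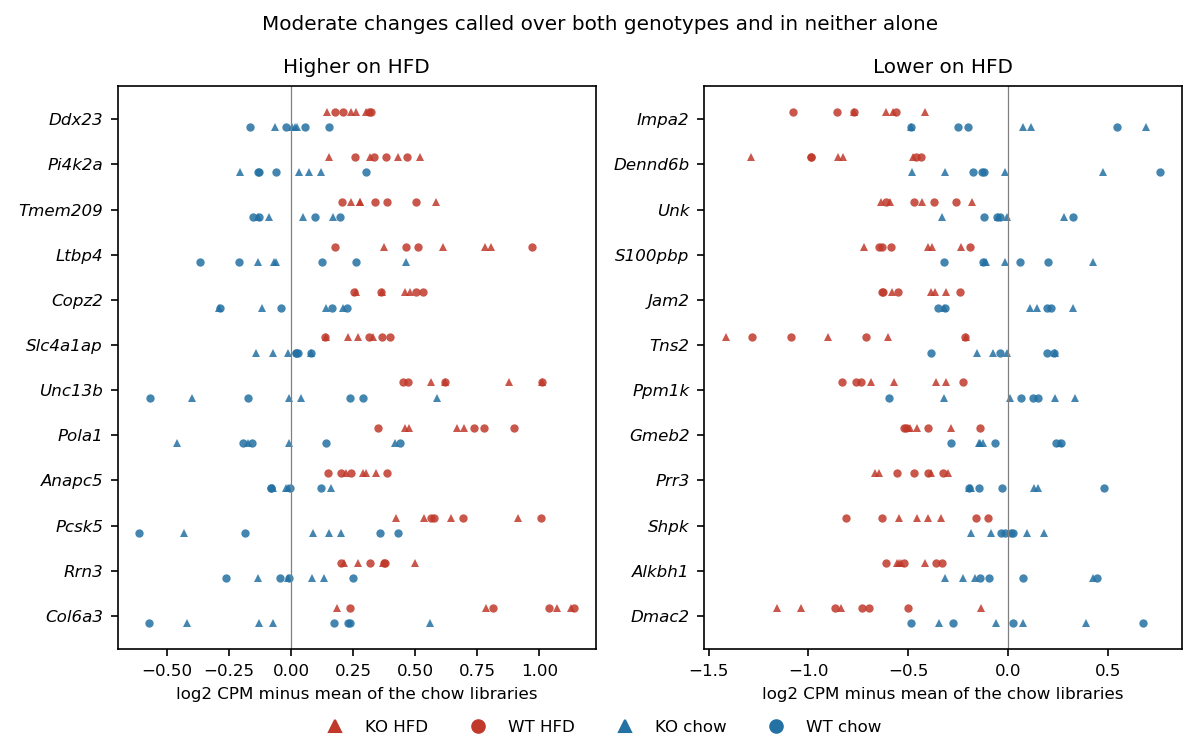
Level in each library of the 24 named moderate pooled-only genes, as log2 CPM minus the mean of the 8 chow libraries (x axis), with HFD points above chow points for each gene. HFD and chow points are separate for Tmem209, Copz2, Slc4a1ap, Prr3 and Alkbh1 and overlap for the other genes.

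The smallest adjusted p at any size belonged to genes that each genotype also called alone. Slc5a6, the transporter of biotin and pantothenate, had 18.3, 22.9 and 26.2 CPM on HFD, against 59.6, 76.5 and 88.6 CPM on chow (log2 fold change −1.71, SE 0.097, edgeR adjusted p = 5.4e-08). Ddo, D-aspartate oxidase, fell by 2.21 on the log2 scale and P2rx5, an ATP-gated channel, by 1.46. Eln, the elastin gene, had 165, 200 and 263 CPM on HFD, against 42.8, 59.2 and 80.5 CPM on chow (log2 fold change 1.76, SE 0.150, edgeR adjusted p = 6.7e-06). Dennd4a (0.87) and the predicted gene Gm10851 (1.5) were the other 2 increases. None of these 6 genes overlapped between diets. Counting did not use strand, so reads of overlapping or antisense genes, which bears on Gm10851, cannot be told apart.

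Transcripts of the respiratory chain were lower on HFD by modest amounts. Of 36 complex I subunits, which pass electrons from NADH to ubiquinone, 17 fell and 0 rose, where 16.8% of all genes tested fell. KO alone called 5 of them and WT alone 2, and 11 were moderate pooled-only changes. The median over the 36 was −0.27, against −0.04 over all genes tested. Complex III had 6 of 9 subunits lower, 5 of them pooled-only, with a median of −0.38, and complex IV, the oxidase that reduces oxygen, had 8 of 13 lower with a median of −0.46. The count of lower complex I subunits was 11 without KO chow replicate 1, 11 without KO chow replicate 2, 11 without WT HFD replicate 2 and 10 in the low lymphoid libraries, or 20 there with the muscle score as a covariate. Among all genes, 1911 were called lower in the low lymphoid libraries and 2669 with that covariate.

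Single subunits show the size. Ndufa6, of complex I, had 50.6, 55.9 and 69.7 CPM on HFD, against 63.6, 85 and 123 CPM on chow (log2 fold change −0.60, SE 0.114, edgeR adjusted p = 0.00104). Uqcrb, of complex III, had 47.4, 55.5 and 73.7 CPM on HFD, against 59.1, 83.2 and 143 CPM on chow (log2 fold change −0.63, SE 0.155, edgeR adjusted p = 0.00556; in KO alone 0.0524 and in WT alone 0.111). In both genes most HFD libraries lay below most chow libraries, with overlap. Uqcrq (−0.44) and Uqcrc2 (−0.38) of complex III were called as well, while the low lymphoid libraries called 1 of 9 complex III subunits, and 6 of 9 with the muscle score as a covariate. Cox7a1 and Cox8b, the muscle and brown fat forms of complex IV subunits, had the larger changes of −1.89 and −1.67 and were called in each genotype alone, while Cox6c (−0.69) and Cox7a2 (−0.46) are common forms. Thermogenic fat cell genes moved the same way: 7 of 15 fell and 1 rose, and their summed level was 229 to 355 CPM on HFD, against 421 to 1070 CPM on chow. Their part in the respiratory result was not tested. In the 30 complex I promoters with 1 listed start, the NRF1 site, GCGC and TGCGC with 1 base between them, stood in 6 (20%, against 9.98% of all windows), the ETS site CCGGAAGT in 1 (3.33%, against 7.94%) and the E-box CACGTG in 1 (3.33%, against 9.83%), on either strand. The NRF1 site stood in 1 of 5 complex III (20%), 1 of 11 complex IV (9.09%) and 5 of 10 ATP synthase promoters (50%), and the ETS site in 2 of 5 (40%), 1 of 11 (9.09%) and 1 of 10 (10%) of them. The E-box stood in 0 of 5, 0 of 11 and 3 of 10 (30%).

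ATP synthase, which makes ATP from the proton gradient, had 4 of 15 subunits lower and 1 higher, near the 34.3% of all genes that were called. The lower count was 2 without WT HFD replicate 1, 2 or 3, without KO HFD replicate 2, without WT chow replicate 3 or 4 or without KO chow replicate 1. Atp5c1 had 232, 251 and 300 CPM on HFD, against 284, 328 and 369 CPM on chow (log2 fold change −0.32, SE 0.081, edgeR adjusted p = 0.00698). Of 17 genes of the tricarboxylic acid cycle and complex II, 7 fell and 0 rose, where 16.8% of all genes tested fell. Of the 7, 6 were pooled-only, where 7.91% of all genes tested were pooled-only and lower, and KO alone called 1. Sdhb, of complex II, had 136, 166 and 217 CPM on HFD, against 189, 222 and 343 CPM on chow, with overlap (log2 fold change −0.46, SE 0.121, edgeR adjusted p = 0.00851). Suclg2, a subunit of succinyl-CoA ligase, changed by −0.43, and Idh3b, of isocitrate dehydrogenase, by −0.52. The count of lower cycle genes was 1 in the low lymphoid libraries, where Sdhb had an edgeR adjusted p of 0.0669, 9 there with the muscle score as a covariate, and 13 with lymphoid and muscle scores as covariates. KO chow replicate 2 was the highest chow library in this list, and without it 6 genes fell.

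Transcripts of the mitochondrial genome fell in 11 of 13 cases with a median of −0.86, and here 1 gene was a pooled-only change because KO alone called 8 and WT alone 10. Their counted levels differed widely. That pooled-only gene, mt-Co2, averaged 39.6 CPM on HFD and 60.3 on chow, mt-Co3 27.5 and 48.7, and mt-Atp6 28.7 and 48.1. By contrast, mt-Co1 averaged 12400 and 24500 CPM. Whether reads of the scarcer ones were lost in counting was not tested, and their calls may rest on a remainder. mt-Nd4, of complex I, had 1570, 2600 and 3210 CPM on HFD, against 4240, 6250 and 9190 CPM on chow. All HFD libraries lay below all chow libraries (log2 fold change −1.31, SE 0.179, edgeR adjusted p = 0.000102). mt-Cytb, of complex III, fell by 1.22 and mt-Co1, of complex IV, by 0.98 on the log2 scale, also without overlap. mt-Nd6 fell by 1.01, but it lies on the strand opposite to its neighbours and unstranded counts cannot part it from them. The nuclear genes for mitochondrial ribosomal proteins had no common direction. Of 76, 11 were lower and 6 higher, where 16.8% of all genes tested fell and 17.5% rose, and the median was −0.02. Of those 17, 15 were pooled-only, where 15.2% of all genes tested were. The lower count ran between 4 and 16 when 1 library was left out. It was lowest without WT HFD replicate 1, WT HFD replicate 2 or KO chow replicate 2 and highest without WT HFD replicate 4. Mrps15, of the small subunit, changed by −0.46 and Mrps6 by 0.90.

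**Figure D3:**
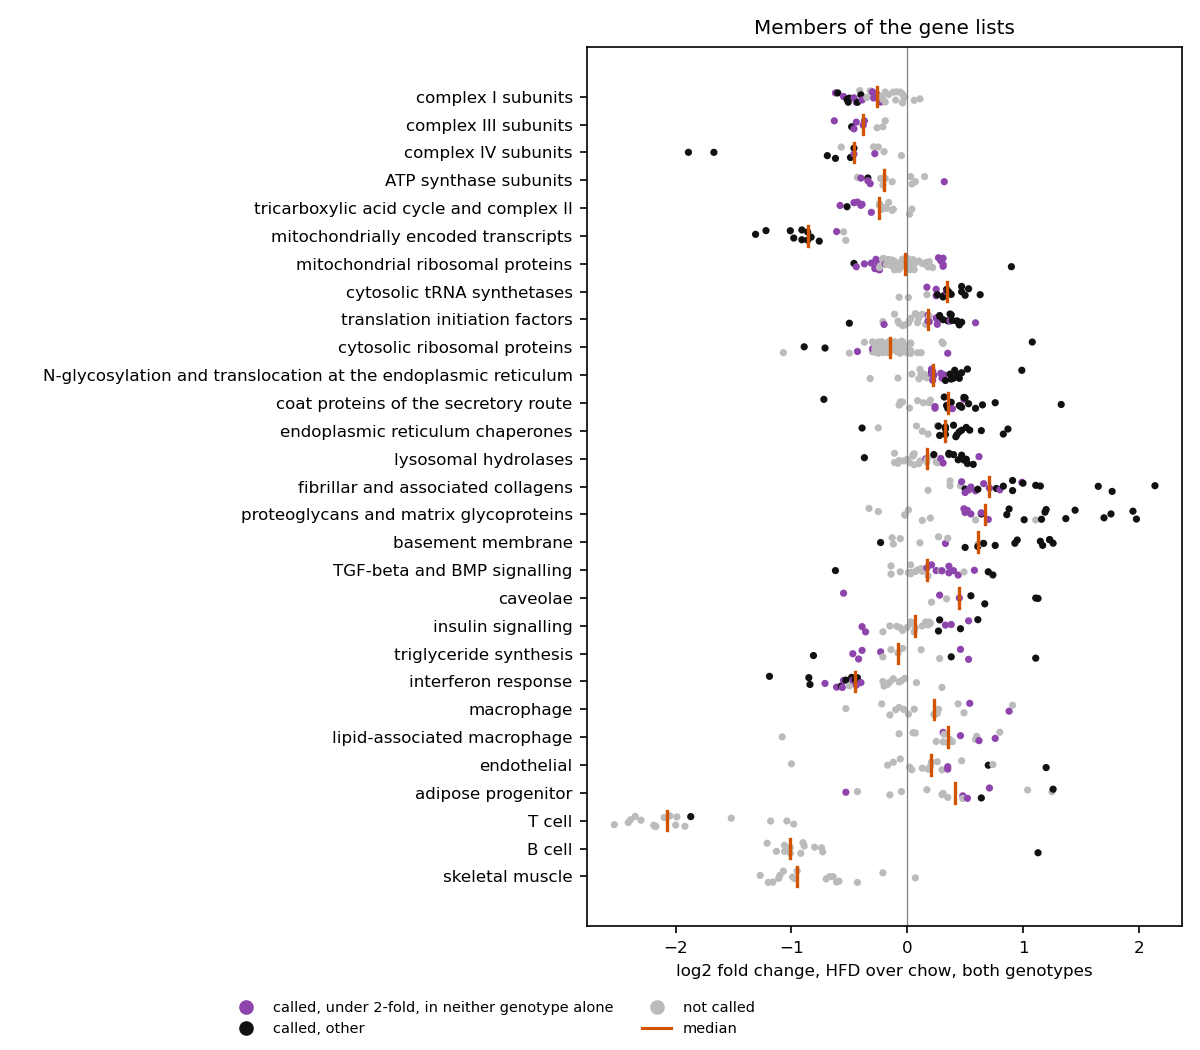
Log2 fold change of HFD over chow over both genotypes (x axis) for each tested member of 29 gene lists (rows), with an orange bar at each list's median. Purple points are moderate pooled-only changes, black points other calls and grey points members that were not called; complex I has 17 called members, all below 0, and the tRNA synthetases 16, all above 0.

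The machinery that charges transfer RNAs was higher on HFD. Of 19 cytosolic aminoacyl-tRNA synthetases, which join amino acids to their transfer RNAs, 16 rose and 0 fell, where 17.5% of all genes tested rose. KO alone called 7 and WT alone 12, and 4 were moderate pooled-only changes. The median was 0.34. Eprs, the enzyme for glutamate and proline, had 189, 204 and 222 CPM on HFD, against 107, 133 and 167 CPM on chow, without overlap (log2 fold change 0.63, SE 0.085, edgeR adjusted p = 0.000101). Iars, for isoleucine, had 34.8, 42.5 and 49.1 CPM on HFD, against 26.7, 30.6 and 33.1 CPM on chow, also without overlap (log2 fold change 0.50, SE 0.072, edgeR adjusted p = 0.000147). Lars, for leucine, and Nars, for asparagine, each had a log2 fold change of 0.47. In the low lymphoid libraries 13 of the 19 rose.

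The promoters of 12 synthetase genes with 1 listed start were searched for the amino acid response core TGATGNAA, on both strands, a motif chosen after the values were seen. It is the core of sites known to bind ATF4, a factor of the amino acid response. The core stood in 5 of the 12 windows (41.7%), each of 300 bases around the start, and in 212 of 9289 windows of tested genes (2.28%). In the same 12 windows the E-box stood in 4 (33.3%, against 9.83% of all windows) and the NRF1 site in 3 (25%, against 9.98%). The ETS site stood in 1 of them (8.33%, against 7.94%). The core overlapped a match of another motif searched in 2 of the 9289 windows and in 0 of the synthetase windows. Promoters of 3 of the 5 are shown because they hold the core near the start of genes that rose together, with the match in capitals, from RefSeq on GRCm38.p6. In Gars and Iars the match is on the opposite strand, and Yars and Gars were chosen after their values were seen. Yars, for tyrosine, averaged 58.7 CPM on HFD and 46.2 on chow (log2 fold change 0.34, edgeR adjusted p = 0.00822), and is a pooled-only change. Gars, for glycine, averaged 128 CPM on HFD and 99.3 on chow (log2 fold change 0.36, edgeR adjusted p = 0.00346). The windows lie at chr4:129189653-129189952 for Yars, chr6:55037751-55038050 for Gars and chr13:49681880-49682179 for Iars, all on the plus strand.
Yars: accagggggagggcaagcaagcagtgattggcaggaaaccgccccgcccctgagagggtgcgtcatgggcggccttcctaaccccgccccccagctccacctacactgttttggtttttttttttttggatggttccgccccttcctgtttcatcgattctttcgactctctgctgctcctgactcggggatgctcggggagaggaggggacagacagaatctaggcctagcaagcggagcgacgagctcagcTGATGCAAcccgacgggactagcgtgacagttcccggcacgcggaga
Gars: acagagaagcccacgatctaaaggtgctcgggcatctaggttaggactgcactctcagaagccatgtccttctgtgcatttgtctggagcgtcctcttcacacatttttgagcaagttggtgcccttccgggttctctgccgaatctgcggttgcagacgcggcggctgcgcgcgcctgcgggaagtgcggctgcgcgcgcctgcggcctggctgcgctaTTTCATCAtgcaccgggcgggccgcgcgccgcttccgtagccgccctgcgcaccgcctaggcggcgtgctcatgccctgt
Iars: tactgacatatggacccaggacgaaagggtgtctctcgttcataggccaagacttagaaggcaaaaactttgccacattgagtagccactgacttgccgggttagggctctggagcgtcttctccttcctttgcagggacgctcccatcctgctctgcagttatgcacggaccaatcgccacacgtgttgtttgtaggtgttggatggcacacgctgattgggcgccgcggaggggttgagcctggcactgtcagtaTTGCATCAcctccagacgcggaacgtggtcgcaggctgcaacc
The match starts at base 254 of the window in Yars, 221 in Gars and 258 in Iars. A match is a description of the letters and does not show that a factor binds there.

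Factors that start translation rose in part. Of 37 initiation factor genes, 19 rose and 2 fell, with 8 higher and 1 lower pooled-only changes and a median of 0.18. Over all genes tested 17.5% rose, 16.8% fell, and 7.31% were pooled-only and higher. Eif2b2, a subunit of the exchange factor of eIF2, had 40.2, 41.5 and 43.2 CPM on HFD, against 27.1, 29.8 and 35.9 CPM on chow, without overlap (log2 fold change 0.45, SE 0.065, edgeR adjusted p = 0.000141). Eif4g1, the scaffold of the cap-binding complex, changed by 0.47, Eif3a by 0.43 and Eif3c by 0.38, likewise without overlap. With only the low lymphoid libraries, 11 of the 37 rose. Genes for cytosolic ribosomal proteins moved little: 4 of 82 fell, 2 rose and the median was −0.14. That lower count was 13 in limma-voom, 11 without KO HFD replicate 1, 9 without WT HFD replicate 4 and 2 without any 1 of WT HFD replicates 1 and 3, KO HFD replicates 3 and 4, WT chow replicates 1 and 4 and KO chow replicate 3. Ribosomal protein genes have many near-identical copies that can share reads. Rps24 changed by −0.43 (edgeR adjusted p = 0.0194).

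Genes of the early secretory route were higher on HFD. Of 30 genes for translocation into the endoplasmic reticulum and N-glycosylation, 21 rose and 0 fell, and 10 of the 21 were moderate pooled-only changes. KO alone called 6 and WT alone 9, and the median was 0.23. Over all genes tested 17.5% rose and 7.31% were pooled-only and higher. Sec61a1, the channel through which new proteins enter, had 99.1, 114 and 124 CPM on HFD, against 66.3, 78.2 and 93.7 CPM on chow, without overlap (log2 fold change 0.52, SE 0.080, edgeR adjusted p = 0.000222). Stt3a, a catalytic subunit of the oligosaccharyltransferase, changed by 0.33, while the catalytic subunit Stt3b was not called (0.11, edgeR adjusted p = 0.227). Magt1, an accessory subunit of oligosaccharyltransferase, changed by 0.47 and Srprb, of the receptor for the signal recognition particle, by 0.38. In the low lymphoid libraries 11 of the 30 rose and 1 fell.

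Vesicle coat and chaperone genes were higher too. Of 29 coat genes, 20 rose and 1 fell with a median of 0.35, where 17.5% of all genes tested rose. Of the 20, 4 were pooled-only, where 7.31% of all genes tested were pooled-only and higher. Copg1, of the COPI coat that returns cargo to the endoplasmic reticulum, had 169, 199 and 217 CPM on HFD, against 108, 122 and 149 CPM on chow (log2 fold change 0.65, SE 0.076, edgeR adjusted p = 3.4e-05). Sec23b, of the COPII coat that leaves it, rose by 0.53 and Copg2 by 1.33, while Sec24b, another COPII subunit, fell by 0.72 on the log2 scale. None of these 4 overlapped between diets. Copg2 had the largest rise of the 29, and counts without strand cannot part its reads from those of an antisense gene. Of 21 genes for chaperones and related factors of the endoplasmic reticulum 15 rose and 1 fell. Of these, 0 were pooled-only, since WT alone called 15 higher and KO alone 9. The 1 that fell was Herpud1 (log2 fold change −0.39, edgeR adjusted p = 0.00109), and Xbp1 was not called (−0.25, edgeR adjusted p = 0.0852). Hspa5, the Hsp70 of this compartment, had 443, 621 and 763 CPM on HFD, against 269, 319 and 386 CPM on chow (log2 fold change 0.87, SE 0.117, edgeR adjusted p = 9.31e-05). Dnajc3, its co-chaperone, had 140, 167 and 176 CPM on HFD, against 105, 122 and 133 CPM on chow (log2 fold change 0.45, SE 0.063, edgeR adjusted p = 0.000113), and P4hb, a disulfide isomerase, changed by 0.64. The groups of Hspa5, Dnajc3 and P4hb did not overlap.

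The endoplasmic reticulum stress element, CCAAT and CCACG with 9 bases between them on either strand, is a site known to bind ATF6, and was also chosen after the values were seen. It stood in 7 of 17 promoters of the list of chaperones and related factors (41.2%) and in 17 of 9289 windows (0.183%). In the 22 translocation and glycosylation promoters and the 22 coat promoters it stood in 0. Those of Dnajc3 and Hspa5 are shown because they hold the element and their genes rose without overlap between diets, with the element in capitals, at chr14:118937682-118937981 and chr2:34771840-34772139 on the plus strand (RefSeq, GRCm38.p6).
Dnajc3: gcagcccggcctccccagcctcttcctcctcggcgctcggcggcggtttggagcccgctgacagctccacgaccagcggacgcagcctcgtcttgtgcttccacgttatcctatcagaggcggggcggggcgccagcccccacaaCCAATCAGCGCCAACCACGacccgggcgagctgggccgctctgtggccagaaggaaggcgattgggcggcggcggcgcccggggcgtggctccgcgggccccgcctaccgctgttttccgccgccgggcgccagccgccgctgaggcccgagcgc
Hspa5: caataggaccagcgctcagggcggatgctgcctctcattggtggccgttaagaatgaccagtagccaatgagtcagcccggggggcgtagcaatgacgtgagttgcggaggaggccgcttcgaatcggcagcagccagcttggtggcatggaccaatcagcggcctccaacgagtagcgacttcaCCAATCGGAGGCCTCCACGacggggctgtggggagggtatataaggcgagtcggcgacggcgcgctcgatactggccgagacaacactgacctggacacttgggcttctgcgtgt
The element starts at base 146 of the window in Dnajc3 and 186 in Hspa5.

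Lysosomal hydrolases, which break down cargo delivered to lysosomes, rose in 14 of 33 cases and fell in 1, with a median of 0.17 and 4 pooled-only changes. Over all genes tested 17.5% rose, 16.8% fell, and 7.31% were pooled-only and higher. Ctsl and Ctsb, both pooled-only, are also members of the list of lipid-associated macrophage genes. Arsb, an arylsulfatase of dermatan sulfate, had 83.4, 111 and 136 CPM on HFD, against 63.3, 74.0 and 81.5 CPM on chow, without overlap (log2 fold change 0.57, SE 0.095, edgeR adjusted p = 0.000397). Sgsh, a sulfamidase of heparan sulfate, changed by 0.49, and Glb1, a beta-galactosidase, by 0.52. Among low lymphoid libraries, 9 of the 33 rose.

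Matrix genes were higher on HFD. Of 25 fibrillar and associated collagens 21 rose and 0 fell, where 17.5% of all genes tested rose. All 25 lay above 0, with a median of 0.71. KO alone called 7, WT alone 9, and 9 were moderate pooled-only changes, where 7.31% of all genes tested were pooled-only and higher. Col5a1, a collagen that nucleates fibrils, had 403, 541 and 591 CPM on HFD, against 126, 248 and 354 CPM on chow, without overlap (log2 fold change 1.15, SE 0.199, edgeR adjusted p = 0.000568). Col12a1, which sits on fibril surfaces, rose by 2.14 on the log2 scale, and Col6a1 and Col6a2, the partners of Col6a3 in collagen VI, by 1 and 1.11. In the low lymphoid libraries 15 of the 25 rose.

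Proteoglycans and matrix glycoproteins rose in 19 of 28 cases with 0 lower and a median of 0.67, where 17.5% of all genes tested rose. Of the 19, 6 were pooled-only, where 7.31% of all genes tested were pooled-only and higher. Prelp, a leucine-rich proteoglycan, had 1370, 1570 and 2070 CPM on HFD, against 380, 527 and 1060 CPM on chow, without overlap (log2 fold change 1.45, SE 0.187, edgeR adjusted p = 6.92e-05). Fbln2, a fibulin, changed by 1.16 and Bgn, biglycan, by 0.88. Basement membrane genes rose in 12 of 21 cases and fell in 1, with a median of 0.61, but 1 alone was pooled-only since KO alone called 11 higher. Nid1, nidogen, had 1010, 1110 and 1210 CPM on HFD, against 309, 634 and 746 CPM on chow, without overlap (log2 fold change 0.95, SE 0.162, edgeR adjusted p = 0.000468). Hspg2, perlecan, changed by 1.23 and Sparc, a collagen-binding glycoprotein, by 1.17.

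Genes of TGF-beta and BMP signalling, which steers matrix production, rose in part. Of 26 genes 11 rose and 1 fell, where 17.5% of all genes tested rose. Of the 11, 9 were moderate pooled-only changes, where 7.31% of all genes tested were pooled-only and higher. KO alone called 2 higher and WT alone 1. The median was 0.17. Bmpr1a, a type I BMP receptor, had 132, 154 and 187 CPM on HFD, against 59.1, 98.6 and 115 CPM on chow, without overlap (log2 fold change 0.74, SE 0.128, edgeR adjusted p = 0.000534). Bmp2, a ligand, changed by 0.70, and Ltbp2, a relative of Ltbp4 in the microfibrils, fell by 0.62 on the log2 scale. The count of higher genes was 6 without KO chow replicate 3, 4 in the low lymphoid libraries and 6 with upper-quartile scaling. Caveolae, the membrane pits abundant on fat cells, had 6 of 9 genes higher and 1 lower. Cavin1, their coat protein, had 1760, 2210 and 2710 CPM on HFD, against 692, 1010 and 1470 CPM on chow, without overlap (log2 fold change 1.13, SE 0.140, edgeR adjusted p = 5.69e-05). Ehd2, Cavin2 and Cavin3 changed by 0.67, 0.55 and 1.11.

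Insulin signalling and triglyceride synthesis moved in both directions. Of 25 insulin signalling genes 7 rose and 2 fell, near the 34.3% of all genes that were called, with a median of 0.07. Gsk3b, the kinase that inhibits glycogen synthase, had 115, 134 and 155 CPM on HFD, against 86, 98.9 and 108 CPM on chow, without overlap (log2 fold change 0.46, SE 0.076, edgeR adjusted p = 0.000385). Rptor, of mTOR complex 1, changed by 0.28 and Pdpk1, the kinase that activates Akt, by 0.27. Of 15 genes of triglyceride synthesis 4 rose and 5 fell, and 6 of those 9 were pooled-only. Gpam, the mitochondrial acyltransferase of the first step, had 178, 208 and 253 CPM on HFD, against 220, 265 and 375 CPM on chow (log2 fold change −0.39, SE 0.109, edgeR adjusted p = 0.0121; in KO alone 0.148 and in WT alone 0.0937). Bscl2, seipin of the lipid droplet, had 252, 376 and 411 CPM on HFD, against 209, 257 and 363 CPM on chow (log2 fold change 0.46, SE 0.126, edgeR adjusted p = 0.0105). Both overlapped between diets. The count of lower genes was 3 without WT HFD replicate 1 or 2, WT chow replicate 3 or KO chow replicate 2 and 2 in the libraries merged over lanes, and the count of higher genes was 2 in the low lymphoid libraries.

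Interferon response genes were lower on HFD. Of 27 genes 15 fell and 0 rose, where 16.8% of all genes tested fell. Of the 15, 7 were moderate pooled-only changes, where 7.91% of all genes tested were pooled-only and lower. The median was −0.45, and KO alone called 7 and WT alone 5. Xaf1, an interferon-induced gene, had 14, 15.3 and 19 CPM on HFD, against 20.4, 22 and 29.6 CPM on chow, without overlap (log2 fold change −0.53, SE 0.089, edgeR adjusted p = 0.000462). Stat2, a factor that carries the interferon signal to the nucleus, changed by −0.43 and Psmb9, an immunoproteasome subunit, by −0.85. The lymphoid score was lower on HFD as well, at a median of 0.72 on HFD against 3.59 on chow. Restricted to low lymphoid libraries, 10 of the 27 interferon genes fell, and 9 in the libraries merged over lanes.

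**Figure D4:**
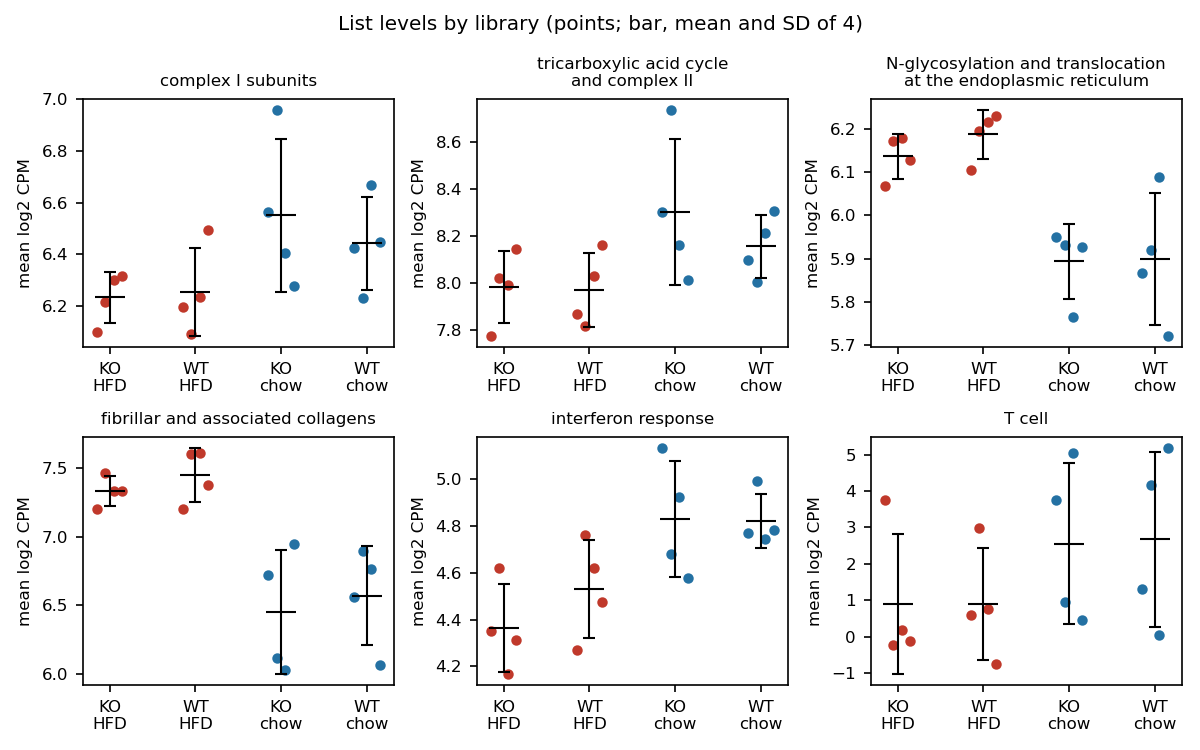
Mean log2 CPM (y axis) of 6 gene lists in each library, by group; black marks give the mean and SD of 4 libraries. The collagens lay at 7.2 to 7.61 on HFD and 6.02 to 6.94 on chow, the interferon genes at 4.17 to 4.76 on HFD and 4.58 to 5.13 on chow, and the T cell genes at −0.76 to 3.75 on HFD and 0.06 to 5.18 on chow.

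Markers of other cell types moved less uniformly. Of 18 macrophage markers 2 rose (11.1%), both pooled-only, and 0 fell, where 17.5% of all genes tested rose. Cd68, a lysosomal protein of macrophages, had 38.1, 48.7 and 72.7 CPM on HFD, against 19.3, 31.6 and 61.9 CPM on chow (log2 fold change 0.54, SE 0.186, edgeR adjusted p = 0.0354). Adgre1, the F4/80 antigen, had 43.0, 58.7 and 93.7 CPM on HFD, against 14.6, 25.4 and 72.8 CPM on chow (log2 fold change 0.88, SE 0.306, edgeR adjusted p = 0.0375). Both overlapped between diets, and each lost its call in 10 of 16 cases of leaving out 1 library, with adjusted p up to 0.0719 for Cd68 (without WT HFD replicate 2) and 0.0728 for Adgre1 (without WT HFD replicate 3). The count of higher macrophage markers was 0 without any 1 of WT HFD replicates 2 and 3, KO HFD replicate 2, WT chow replicates 1, 3 and 4 and KO chow replicates 2 and 3, and 4 without WT chow replicate 2 or KO chow replicate 1. The summed level of the 18 markers was 1710 to 3460 CPM on HFD and 1350 to 3580 CPM on chow.

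Of 17 genes of lipid-associated macrophages, cells that gather around dying fat cells, 4 rose, all of them pooled-only, near the 17.5% of all genes tested that rose. Ctsl, a lysosomal protease, had 520, 654 and 750 CPM on HFD, against 265, 433 and 533 CPM on chow (log2 fold change 0.62, SE 0.139, edgeR adjusted p = 0.00315). Lgals3, galectin 3, changed by 0.76, Cd9, a tetraspanin, by 0.46 and Ctsb by 0.31. In the low lymphoid libraries 1 of the 17 rose and 1 fell, 6 rose there with the muscle score as a covariate, and the count of higher ones was 7 without KO chow replicate 4 and 8 in limma-voom. Fat cells and other cells of the tissue express Ctsb, Ctsl and Cd9 too.

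Endothelial markers rose in 4 of 18 cases and fell in 0, near the 17.5% of all genes tested that rose. Cldn5, a tight junction protein, had 91.1, 124 and 199 CPM on HFD, against 30.1, 55.1 and 83.2 CPM on chow, without overlap (log2 fold change 1.20, SE 0.186, edgeR adjusted p = 0.000294). Vwf changed by 0.70 and the receptor Tek by 0.35. Pecam1 (0.35, edgeR adjusted p = 0.0284) lost its call without WT HFD replicates 1, 2 or 3, KO HFD replicate 3 or WT chow replicate 4, with adjusted p up to 0.0686. Of 16 progenitor markers 5 rose and 1 fell, and the count of higher ones was 8 without WT chow replicate 2 or KO chow replicate 1. Col15a1, a collagen of the basement membrane zone, changed by 1.26 and Anxa3, an annexin, by 0.52, while F3, tissue factor, changed by −0.53.

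T cell markers had the lowest median of the lists described, −2.08 over 18 genes, with 1 called lower and wide spread between libraries. Their summed level had a lowest, median and highest value of 11.9, 27.6 and 264 CPM on HFD, against 21, 155 and 712 CPM on chow, and 2 of the 18 had 0 counts in some library. Without KO HFD replicate 1, the HFD library with the highest lymphoid score, 15 of the 18 fell, and without any other 1 library 2 at most did. DESeq2 called 7 of them lower and edgeR with 1 surrogate variable 15. B cell markers had a median of −1.01 and 1 called member, Ighm, the heavy chain of immunoglobulin M, which ran the other way at 858, 1190 and 1540 CPM on HFD, against 314, 564 and 759 CPM on chow (log2 fold change 1.13, SE 0.181, edgeR adjusted p = 0.000317). Its groups did not overlap. Skeletal muscle genes had a median of −0.95 with 0 of 17 called, and their summed level was 142 to 2710 CPM on HFD and 128 to 6050 CPM on chow. The part of lymphoid and muscle RNA in the other results was not tested beyond the counts given above.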

How the data were processed

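Poly-A RNA of 16 libraries was sequenced, 4 in each of 4 groups. Per the submitters' processing notes, the aligner was STAR 2.7.3a and the build GRCm38.p6. The deposited counts are whole numbers of read pairs per gene, made by the authors with featureCounts 2.0.3 against the Ensembl 102 annotation without using strand, per the file headers, although the labels name a stranded kit. Columns were mapped to samples by animal code. All of the columns were used.

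Of 55487 genes, 55141 took a symbol from the reference table and 346 had none. With R 4.3.3 and edgeR 4.0.16, filterByExpr left 16549 genes, TMM factors were computed, and glmQLFit (robust) and glmQLFTest were run with diet and genotype as additive terms. Diet effects within KO and WT, and the interaction, came from a fit of the 4 group means on the same 16 libraries. The Benjamini-Hochberg adjustment ran over every tested gene, with a threshold of 0.05. CPM values use TMM factors, the log2 CPM of scores has a prior count of 2, and means are given with the SD. Library totals give the depth, and the 95% intervals cover the spread between libraries. No 2 libraries of a group agreed within sampling noise (lowest chi-square per gene 9.67 over 24 pairs). The code was tested on simulated data.

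Named genes are the 12 moderate pooled-only genes of smallest adjusted p in each direction (mean of at least 10 CPM on 1 diet, predicted genes left out), the 3 of smallest adjusted p in each direction at any size, up to 4 members of each list described (called ones first, by adjusted p) and Kmo. Some members that this rule would name are left out of the text. The 57 lists, the 29 of them described, the members and the comparisons were chosen with earlier results of these data known. Promoters are those of RefSeq for genes with 1 listed start, from 250 bases before to 50 after it. Alternatives were other scaling, DESeq2 1.42.0, limma-voom (limma 3.58.1), other filters and models, 1 surrogate variable (sva 3.50.0), covariates and left-out libraries.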

Additional observations from a re-analysis of the deposited data

Results flagged for a closer look

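In 332 sets of 8 libraries, 166 genes and list scores on each diet, 16 had a highest or lowest library far from the other 7. Chance flags about 1 in 20 such sets. Values are log2 CPM.

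KO chow replicate 2 stood high in respiratory genes, with Ndufv2 at 7.74 (other chow libraries 6.90 to 7.22), Uqcrh at 8.10 (6.95 to 7.46), Sdhb at 8.42 (7.56 to 7.94) and the score of the tricarboxylic acid cycle and complex II at 8.74 (8.01 to 8.31). WT HFD replicate 4 stood high for Cox6c at 7.69 (other HFD libraries 7.03 to 7.34) and Atp5j2 at 7.47 (6.76 to 7.07).

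KO HFD replicate 1, from a single lane and with the highest lymphoid score on HFD, stood low for Bscl2 at 7.98 (other HFD libraries 8.45 to 8.68), P4hb at 8.65 (8.88 to 9.06), Cavin3 at 8.17 (8.61 to 8.89) and the score of the coat proteins at 6.59 (6.74 to 6.83). WT HFD replicate 1 stood low for Eif3a at 8.02 (8.22 to 8.39).

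Among chow libraries, KO chow replicate 4 stood high for Copg2 at 6.82 (5.72 to 6.20) and low for Stat2 at 5.45 (5.72 to 5.93), and WT chow replicate 4 stood low for the insulin signalling score at 6.34 (6.43 to 6.51). Myl1, a muscle myosin light chain, stood high in WT HFD replicate 3 at 7.86 (6.40 to 6.85) and in WT chow replicate 3 at 9 (6.14 to 7.30).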

How the results depend on the processing

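The count over both genotypes, 5680, ran between 3936 (low lymphoid libraries) and 7176 (threshold 0.10) over 35 alternatives, and the count of moderate pooled-only genes, 2519, between 1717 (low lymphoid libraries with a muscle covariate) and 3361 (each genotype's 8 libraries fitted alone) over 36. In the alternatives run, none of the 2519 genes turned its sign. No interaction was called under any alternative. The single-genotype counts, 2071 in KO and 1957 in WT, moved more: to 1332 and 1056 with 8 libraries fitted alone, 1284 and 1245 without a filter, 768 and 625 in the low lymphoid libraries, 3371 and 3092 with 1 surrogate variable, and 3460 and 3366 at a threshold of 0.10. KO gave 3412 with limma-voom, and WT gave 225 in the libraries merged over lanes. Leaving out 1 library gave 745 to 2714 in KO and 689 to 2400 in WT. The cause of these moves was not tested. The threshold, the lane term and the muscle covariate in low lymphoid libraries were added after seeing the data.

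Deviations from the group means in HFD and chow libraries of the same genotype and replicate number correlated at −0.47 to 0.61. The correlation was above 0.1 in 6 of 8 pairs. Differently numbered pairs were not compared, so whether replicate numbers pair libraries was not tested. With the replicate number as a block, 5018 genes were called over both genotypes, 1126 in KO and 1050 in WT, and 1908 of the 2519 genes were still called. The part of sequencing depth was not tested.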
